A study of Spodoptera frugiperda with 3 samples.

Results

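The 172 unigenes described here were among the most abundant transcripts of normal Sf9 cells and kept their level within a fixed limit in both transfected libraries. Of the 42041 unigenes assembled from the RNA of the 3 libraries, 22090 were at least 500 nt long. The 200 of these with the highest FPKM in Sf9 were taken, and the members are those for which the log2 ratio to Sf9 was under 0.8 in size in ASO and in the Sf-15 library alike. FPKM divides the fragments of a unigene by its length in kilobases and by the mega-fragments (M) of the library, and 1 FPKM was added to both libraries before each ratio. The members were thus chosen by their Sf9 level and by both ratios, so these values are given as a description and without a test.

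Sf9 is a continuous cell line from ovary cells of the fall armyworm *Spodoptera frugiperda*, used here at passage 15 to 18. The library named Sf9 is of normal cells, the library named ASO is of Sf9 cells that received an antisense oligonucleotide meant to repress the snoRNA Sf-15, and the library named Sf-15 is of Sf9 cells that received the overexpression vector, in which the *actinA3* promoter drives Sf-15 and EGFP is carried as well. The sample labels write Bm-15 for Sf-15, and give 2 μg of plasmid or oligonucleotide with a lipid reagent for the transfected cells, where the methods of the study state the oligonucleotide as a concentration. The time from transfection to harvest of these samples is not given in the sources used here. Each condition has 1 library, no library of mock-transfected cells was analysed here, and an effect of transfection cannot be told apart from an effect of the Sf-15 level. The level of Sf-15 itself was not analysed here. The depth was 19.6, 19.7 and 18.0 M fragments in the Sf9, ASO and Sf-15 libraries.

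Sf-15 is a C/D box snoRNA, and RNAs of this class guide the ribose methylation of ribosomal RNA in the nucleolus. In animal cells in culture, the most abundant messenger RNAs commonly encode ribosomal proteins, translation elongation factors and cytoskeletal proteins such as actin and tubulin, and steady transcripts of this kind serve as internal controls in quantitative PCR. RNA sequencing measures each transcript as a share of its library, so a transcript can take a smaller share when its own amount falls or when others grow. The members are known by assembly names alone, with neither a gene name nor a sequence, and which of them belong to these classes was not analysed here. For the same reason the cell identity could not be checked by marker genes, and no promoter or protein is shown.

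Summed over the members, the share of fragments was 30.3% in Sf9 (30.28% to 30.32%, exact at 95%), 23.9% in ASO (23.88% to 23.91%) and 23.9% in Sf-15 (23.90% to 23.93%). This came to 5.93, 4.72 and 4.31 M fragments. The summed share was thus 21.1% lower in either transfected library than in Sf9. The log2 ratio of the summed share was -0.34 for ASO to Sf9 and -0.34 for Sf-15 to Sf9. Between the transfected libraries it differed by 0.0196 percentage points, a log2 ratio of 0.0012 with an exact 95% interval of -0.00070 to 0.0031 that includes no difference. These intervals cover counting error only, and how far repeat cultures would spread is not known from 1 library each. Less RNA per cell and fewer cells of a kind cannot be told apart in such a sample.

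The share of 1 contig cluster moved the other way. The 3 contigs of CL1590, of which 2 ranked among the 200 but were past the limit, held 2.01%, 13.5% and 21.1% of the fragments in the Sf9, ASO and Sf-15 libraries. When their fragments were left out of the total of each library, the members held 30.9%, 27.6% and 30.3%. On that base the log2 ratio of the summed share was -0.16 for ASO and -0.028 for Sf-15. The summed share of the members, with an equal shift in both libraries on the FPKM scale, was therefore lower in ASO and nearly level in Sf-15 on that base. Member by member it was less level. The median log2 ratio in Sf-15 on that base was -0.09, against 0.06 over all unigenes of at least 500 nt. Lower than Sf9 in Sf-15 were 114 of the 172 members, against 42.2% of all.

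**Figure D1:**
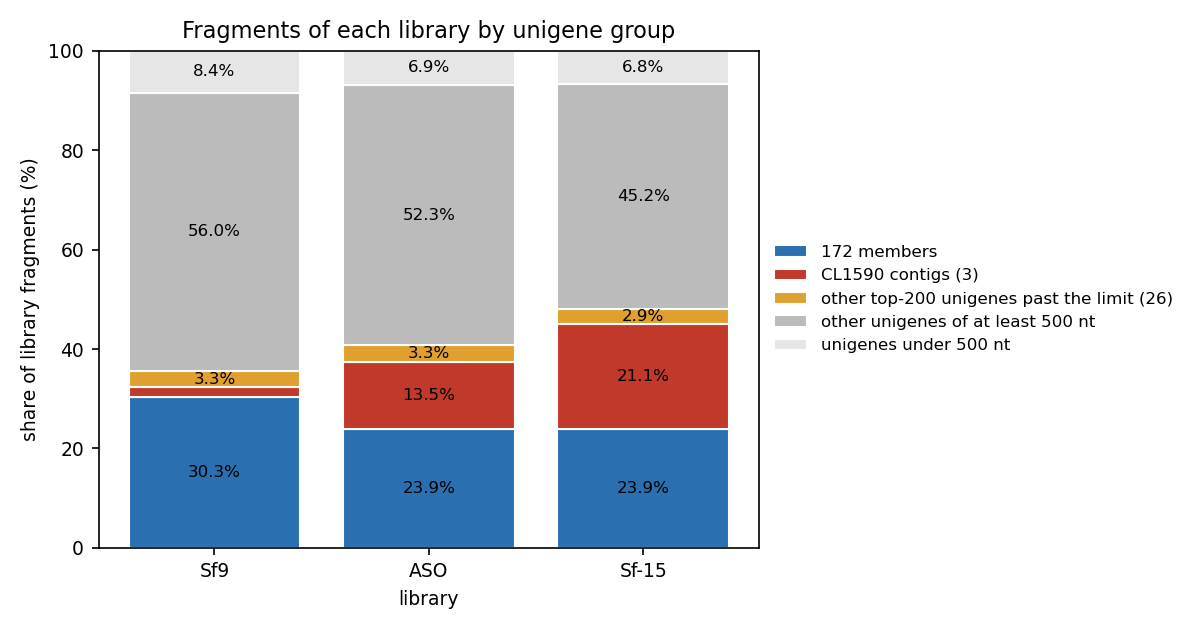
Share of the fragments of each library (%, vertical axis) in the Sf9, ASO and Sf-15 libraries, stacked by unigene group, with 1 library per bar. The 172 members take 30.3% of Sf9 and 23.9% of either transfected library, while the CL1590 contigs grow from 2.01% of Sf9 to 21.1% of Sf-15.

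Beside the members, the 26 other unigenes of the 200 that were past the limit held 3.26%, 3.33% and 2.94% in the Sf9, ASO and Sf-15 libraries. Unigene21105 (1367 nt) carried much of this sum, with 0.0806%, 1.37% and 1.12%, and the 25 without it held 3.18%, 1.96% and 1.83%. Of the 26, 24 were lower than Sf9 in both libraries. The 21890 unigenes of at least 500 nt below the 200 held 56.0%, 52.3% and 45.2%. Their log2 ratio of summed share was -0.10 for ASO and -0.31 for Sf-15, against -0.34 for the members in either library. In ASO the summed share of the members thus fell more than that of the other long unigenes, whereas in Sf-15 both moved much alike. The rule bounded both ratios for the members and not for the others, so this contrast is a description. The nearest in abundance moved like the members, with a median log2 ratio at ranks 201 to 1000 of -0.39 in ASO and -0.44 in Sf-15. For the members it was -0.40 in either library. With CL1590 left out of the totals, the log2 ratio of summed share of the other long unigenes was 0.08 in ASO and 0.0051 in Sf-15.

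The FPKM of the members ran from 374 to 8745 in Sf9 with a median of 828, from 251 to 5394 in ASO with a median of 661, and from 234 to 6038 in Sf-15 with a median of 654. The other unigenes of at least 500 nt had a median of 4.79, 5.29 and 4.19 FPKM in the Sf9, ASO and Sf-15 libraries. A member had between 4283 and 197909 fragments in Sf9, and at this depth the exact 95% interval of a single log2 ratio to Sf9 had a median half-width of 0.029 and a largest one of 0.071. The fragments were spread over many members, since the 32 with the most fragments were needed to hold 50% of the members' fragments in Sf9.

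CL1206.Contig2 (531 nt) was the most abundant member, with 8745 FPKM in Sf9, against 5394 in ASO and 6038 in Sf-15. It was the highest long unigene of normal cells and was lower in both transfected libraries, with log2 ratios to Sf9 of -0.70 (exact 95% interval -0.71 to -0.68) and -0.53 (-0.55 to -0.52). Unigene8971 (908 nt) had 7467, 4516 and 5295 FPKM. Unigene23771 (552 nt) had 6739, 4176 and 4778 FPKM, with the libraries in the same order. Unigene21590 (897 nt) had 6478, 3892 and 4321 FPKM. These 4 unigenes were all lowest in ASO and stood between the other libraries in Sf-15, with log2 ratios of -0.69 to -0.73 in ASO and of -0.50 to -0.58 in Sf-15.

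CL1048.Contig2 (1585 nt) had the most fragments of any member in Sf9, at 1.01%, 0.684% and 0.691% of the Sf9, ASO and Sf-15 libraries, and log2 ratios of -0.56 and -0.55. In both transfected libraries CL2180.Contig1 (1911 nt) had more, at 0.864% of ASO and 0.799% of Sf-15. The level of CL1048.Contig2 in the transfected libraries was almost equal, unlike that of the 4 shorter unigenes before it. Unigene14263 (785 nt) had 6302 FPKM in Sf9, against 5203 in ASO and 5701 in Sf-15, the smallest shift in Sf-15 among the 10 highest members. Unigene16551 (598 nt) had 5933, 4290 and 4995 FPKM. CL1048.Contig2, Unigene14263 and Unigene16551 were again lowest in ASO. Unigene4252 (570 nt), at 5603, 4340 and 4595 FPKM, and Unigene14101 (618 nt), at 5515, 4395 and 4631 FPKM, had the same order.

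Unigene21136 (915 nt) was the exception among the 10 highest members, with 5155 FPKM in Sf9, against 4700 in ASO and 4288 in Sf-15. Its log2 ratio to Sf9 was -0.13 in ASO and -0.27 in Sf-15, and its ratio of Sf-15 to ASO was -0.13 (-0.15 to -0.12). Together the 10 highest members took 5.09%, 3.57% and 3.83% of the fragments in the same order. All 10 were lower in both transfected libraries, and 9 of 10 were lower in ASO than in Sf-15.

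**Figure D2:**
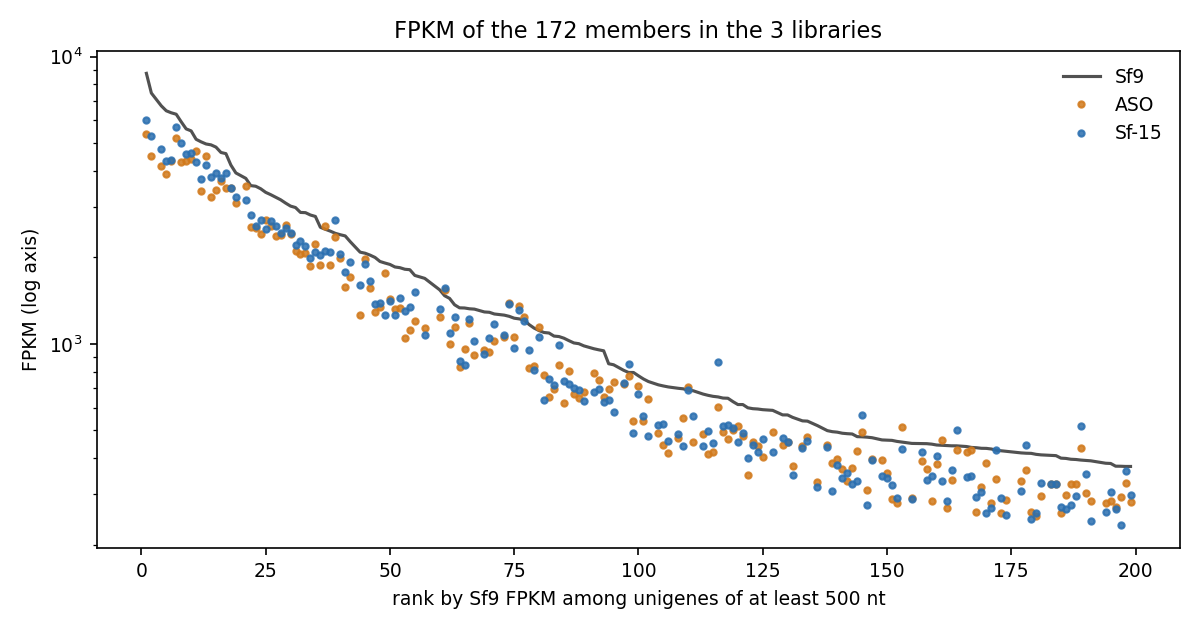
FPKM of the 172 members (log axis) against their rank by Sf9 FPKM among the unigenes of at least 500 nt, with the Sf9 level as a line and the ASO and Sf-15 levels as points, 1 library each. Most points lie below the line along the whole range, and ASO points tend to be the lower ones at the highest ranks.

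Of the 172 members, 161 had a lower FPKM in ASO than in Sf9, where 46.4% of all unigenes of at least 500 nt did. In Sf-15, 161 were lower than in Sf9 as well, where 69.6% of all did. Lower in both were 155 members, or 90.1%, against 42.5% of all and 86.5% of those at ranks 201 to 1000 by Sf9 FPKM. The median log2 ratio of the members was -0.40 in ASO, with quartiles of -0.56 and -0.26, and -0.40 in Sf-15, with quartiles of -0.53 and -0.27. Over all unigenes of at least 500 nt the median was 0.04 in ASO and -0.16 in Sf-15, on a scale where the added 1 FPKM pulls the many low unigenes towards 0. The members thus shared a common downward offset in both libraries that the limit of 0.8 let through, and the word steady holds for them only within that limit.

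The limit itself did not set the members apart. It was met by 172 of the 200, or 86.0%, and by 89.5% of all unigenes of at least 500 nt. The 800 unigenes at ranks 201 to 1000 met it in 86.9% of cases. With both ratios under 0.2 in size, 17 members (9.88%) were left, against 7.88% of ranks 201 to 1000 and 21.1% of all, where low unigenes are drawn to 0. Members without any sizeable shift on the FPKM scale were therefore few.

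**Figure D3:**
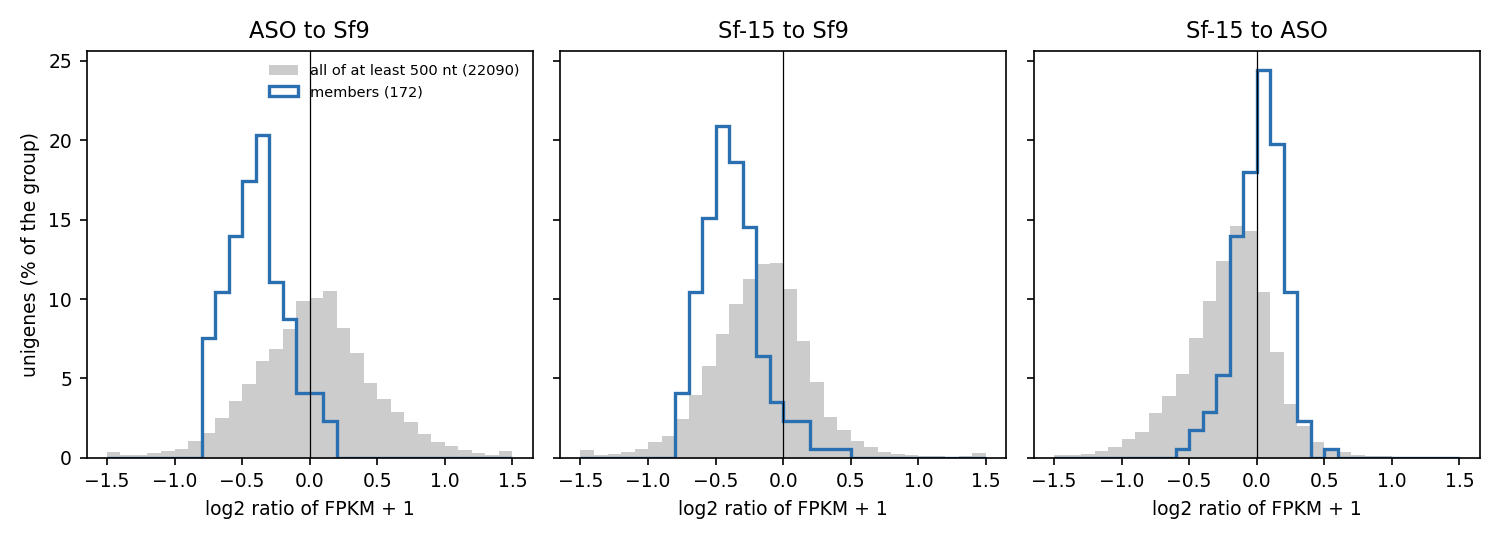
Distribution of the log2 ratio of FPKM + 1 (horizontal axis, values beyond the axis in the end bins) for the members (outline) and for all 22090 unigenes of at least 500 nt (grey), as a percentage of each group, for ASO to Sf9, Sf-15 to Sf9 and Sf-15 to ASO. The members centre at -0.40 in both comparisons with Sf9 and at 0.04 between the transfected libraries, while all unigenes centre at 0.04, -0.16 and -0.17.

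The flattest members were CL192.Contig4, Unigene9008 and Unigene9001. CL192.Contig4 (928 nt) had 1211 FPKM in Sf9, against 1239 in ASO and 1202 in Sf-15. Unigene9008 (1817 nt) had 690, 709 and 688 FPKM, and Unigene9001 (782 nt) had 1113, 1148 and 1057. Their larger log2 ratio was 0.03, 0.04 and 0.07 in size. All 3 were slightly higher in ASO, and against the members' common offset they stood high in both libraries. With the CL1590 fragments left out of the totals, the ratios of CL192.Contig4 became 0.21 in ASO and 0.30 in Sf-15, so that a member that was level on 1 scale was not level on the other.

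Only 17 members were not lower in both libraries, while 42.5% of all unigenes of at least 500 nt were lower in both. Higher in both were 5 of them. Of these, 2 were highest in ASO (1.16% of the members, against 20.4% of all). The other 3 were highest in Sf-15 (1.74%, against 5.96% of all). CL2704.Contig1 (4564 nt) had 1247 FPKM in Sf9, against 1383 in ASO and 1374 in Sf-15, with log2 ratios of 0.15 (0.14 to 0.16) and 0.14 (0.13 to 0.15). Unigene3962 (1173 nt) had 394, 434 and 520 FPKM. Unigene6944 (713 nt) had 475, 493 and 568 FPKM, and, like Unigene3962, it was highest in Sf-15. CL192.Contig5 (528 nt) had 1222, 1359 and 1316 FPKM. Unigene7666 (3106 nt) had 1471, 1546 and 1566 FPKM, a small difference of 0.07 and 0.09 on the log2 scale.

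In 6 members (3.49%, against 27.1% of all unigenes of at least 500 nt) the level was above Sf9 in ASO and below it in Sf-15. Unigene16432 (3458 nt) had 455 FPKM in Sf9, against 514 in ASO and 429 in Sf-15, and its log2 ratio in ASO, 0.17 (0.15 to 0.20), was the highest of the members. Unigene4121 (1797 nt) had 444, 461 and 335 FPKM. CL2021.Contig1 (3005 nt), among the 4 members with the most fragments, had 2506, 2577 and 2102 FPKM. The other three were the flattest members already named. In this group the log2 ratio of Sf-15 to ASO was lowest in Unigene4121, at -0.46 (-0.50 to -0.43).

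The converse, below Sf9 in ASO and above it in Sf-15, was also found in 6 members. This was 3.49% of the members, near the 3.9% of all unigenes of at least 500 nt. Unigene4469 (748 nt) had 654 FPKM in Sf9, against 603 in ASO and 864 in Sf-15. Its log2 ratio to Sf9 was -0.12 (-0.16 to -0.08) in ASO and 0.40 (0.36 to 0.44) in Sf-15, and its ratio of Sf-15 to ASO, 0.52 (0.48 to 0.56), was the highest of the members. Unigene17959 (1197 nt) had 426, 339 and 428 FPKM, and was level between Sf9 and Sf-15. Unigene15050 (1828 nt), at 2426, 2362 and 2709 FPKM, was the most abundant of the 6. Unigene23715, Unigene8931 and Unigene18820 were the others, with ratios of Sf-15 to ASO of 0.24, 0.28 and 0.14.

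The lower edge of the members was set by the limit, and CL3679.Contig2, Unigene8965 and Unigene17838 lay closest to it. CL3679.Contig2 (1012 nt) had 1819 FPKM in Sf9, against 1048 in ASO and 1298 in Sf-15, and its log2 ratio of -0.80 in ASO was the lowest that the rule admitted. Unigene6546 (921 nt) had 599, 351 and 401 FPKM. Unigene18938 (654 nt) had 708, 419 and 460 FPKM. CL3679.Contig2, Unigene6546 and Unigene18938 were all lowest in ASO. In Sf-15 the lowest ratios belonged to other members, each with its lowest level in Sf-15. Unigene8965 (935 nt) had 474, 310 and 274 FPKM, a log2 ratio of -0.79 in Sf-15. Unigene17838 (1439 nt) had 1096, 781 and 636 FPKM. Unigene4313 (667 nt) had 416, 260 and 246 FPKM.

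Just outside the limit lay unigenes of much the same kind. Unigene16498 (551 nt), the third most abundant long unigene of Sf9, had 7059 FPKM in Sf9, against 4034 in ASO and 5029 in Sf-15, and was left out by a ratio of -0.81 in ASO. Unigene18878 (610 nt) had 3911, 2208 and 2525 FPKM with a ratio of -0.82 in ASO, and Unigene5600 (2635 nt) had 578, 389 and 325 FPKM with a ratio of -0.83 in Sf-15. At the rank limit, Unigene13918 at rank 199 had 374.5 FPKM in Sf9 and was a member, and Unigene6652 at rank 200 had 373.6 FPKM and was not, with -0.89 in Sf-15. Unigene23511 and Unigene23618, the first outside, had 368.6 and 368.2 FPKM in Sf9. Of the 28 unigenes past the limit, 24 were lower than Sf9 in both libraries and 4 were higher in both. Unigene5671, with 1708 FPKM in Sf9, against 558 in ASO and 410 in Sf-15, and Unigene5414, with 1668, 749 and 795, were the most abundant of those far past the limit on the low side. The most abundant on the high side was CL1590.Contig3 (8423 nt), with 2184 FPKM in Sf9, 15369 in ASO and 22409 in the Sf-15 library.

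A graded order of Sf9 above ASO above Sf-15 was found in 65 of the 172 members, or 37.8%, against 27.5% of all unigenes of at least 500 nt. The order of Sf9 above Sf-15 above ASO was found in 90 members, or 52.3%, against 14.9% of all. At ranks 201 to 1000 these shares were 50% and 36.5%. In 56 of the 65 and in 82 of the 90, the exact 95% intervals of both steps of the order did not include 0. The ratio of Sf-15 to ASO was below 0 in 73 members (75.1% of all unigenes) and above 0 in 99 (24.8% of all), with a median of 0.04 and a range of -0.57 to 0.52. The members had no common grade from ASO to Sf-15 on the FPKM scale.

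This order depended on how the libraries were scaled. With TMM scaling, which moves the ratios to Sf9 by -0.03 in ASO and by 0.25 in Sf-15, the same 172 members had medians of -0.43 in ASO and -0.16 in Sf-15. Then 162 members were lower than Sf9 in ASO, 133 in Sf-15 and 131 in both, and in 12 the Sf-15 level lay under the ASO level. Among all unigenes of at least 500 nt, 48.4% were then below their Sf9 level in ASO, and the Sf-15 library gave 48.4% too. For 47.2% of them the Sf-15 level was under that of ASO. Their medians with TMM scaling were 0.017 for ASO and 0.011 for Sf-15. The order of Sf9 above Sf-15 above ASO then held for 121 members and the order of Sf9 above ASO above Sf-15 for 10. With the CL1590 fragments left out of the totals, 143 members were lower than Sf9 in ASO and 114 in Sf-15, while 30 had less in Sf-15 than in ASO, with medians of -0.22 and -0.09. Over all unigenes of at least 500 nt these shares were 33.7%, 42.2% and 62%, with medians of 0.16 in ASO and 0.06 in Sf-15. With either scaling the members were lower in ASO than in Sf-15 for the most part, and only on the FPKM scale were both shifts alike.

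The members with the largest steps between the transfected libraries showed the same division. Unigene13901 (3175 nt) had 433 FPKM in Sf9, against 384 in ASO and 259 in Sf-15, which makes a ratio of Sf-15 to ASO of -0.57 (-0.60 to -0.54). CL2990.Contig2 (2496 nt) had 1912, 1770 and 1258 FPKM, a ratio of -0.49. At the other end, after Unigene4469, Unigene12674 (1146 nt) had 2086, 1260 and 1599 FPKM, a ratio of 0.34. Unigene8920 (1042 nt) had 1731, 1198 and 1517 FPKM, also with a ratio of 0.34. The unigenes lower in Sf-15 were the longer ones here.

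Length, which the rule used only as a minimum, went with the step between the transfected libraries over all members. The members were 515 to 6872 nt long with a median of 997 nt, against 1219 nt for the other unigenes of at least 500 nt and 1352.5 nt for ranks 201 to 1000. On the FPKM scale, 38 of the 48 members under 750 nt were higher in Sf-15 than in ASO. Of the 28 members of at least 2000 nt, 25 were lower. At ranks 201 to 1000 the same held for 87 of 126 and for 192 of 216. With TMM scaling, 12 members of any length were lower in Sf-15 than in ASO, so these counts depend on the scaling. The median log2 ratio of Sf-15 to ASO went from 0.10 under 750 nt to 0.09 at 750 to 999 nt, 0.01 at 1000 to 1999 nt and -0.18 at 2000 nt or more. The graded order of Sf9 above ASO above Sf-15 accordingly stood in 9 of the 48 shortest and in 22 of the 28 longest members on the FPKM scale. At ranks 201 to 1000 this order stood in 35 of 126 and in 150 of 216. Unigene11779 (6872 nt), the longest member, had 476, 423 and 334 FPKM in Sf9, ASO and Sf-15, while CL1206.Contig2 of 531 nt had the reverse order of the transfected libraries.

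The ratio to Sf9 varied with length mainly in ASO. Its median in ASO was -0.48 under 750 nt and -0.26 at 2000 nt or more, and in Sf-15 it was -0.36 and -0.45. Across the 172 members, the log2 ratio of Sf-15 to ASO went with log2 length at r = -0.52 (Pearson) and rho = -0.49 (Spearman). The ratio of ASO to Sf9 had an r of 0.37 and that of Sf-15 to Sf9 an r of -0.05. All points share the same libraries, and these values describe the libraries only. The r of Sf-15 to ASO was -0.49 in the 86 members with the higher FPKM in Sf9 and -0.52 in the other 86. The trend was thus found in both ranges of abundance, and its cause was not tested. This r was also -0.52 over the 800 unigenes at ranks 201 to 1000, and is thus no property of the members alone. A change of the scaling moves every log2 ratio of a comparison by nearly the same amount. It leaves the correlations almost as they are, but it moves the medians and the counts by length.

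**Figure D4:**
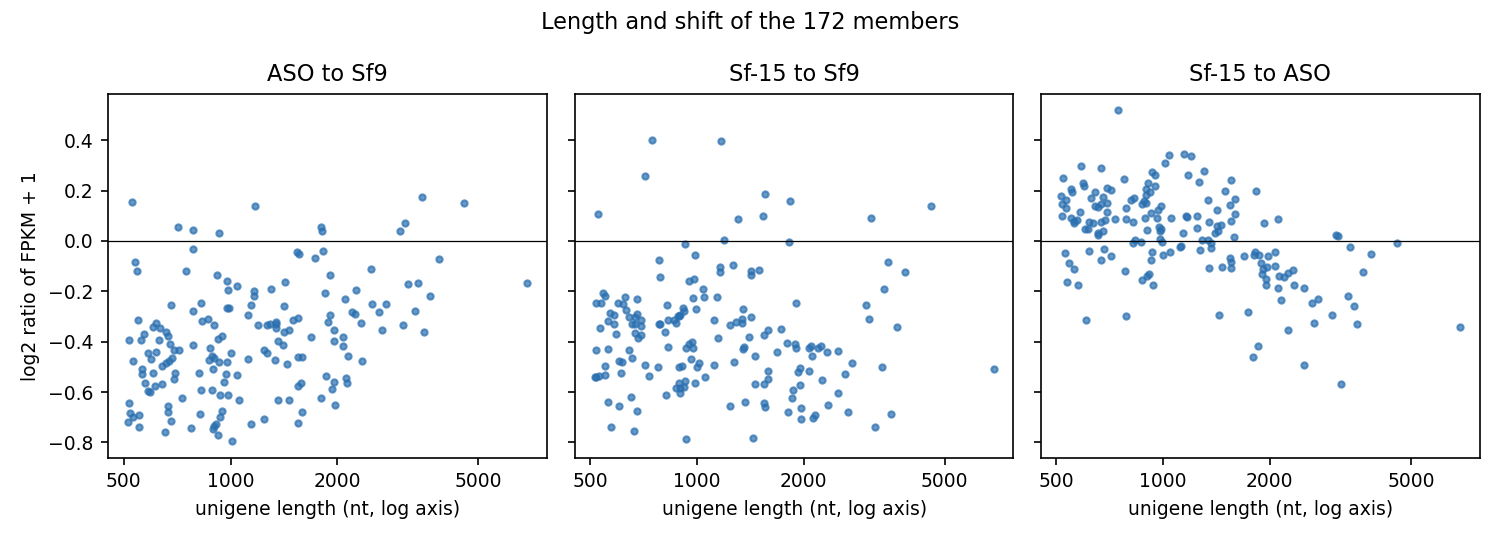
Log2 ratio of FPKM + 1 (vertical axis) of the 172 members against unigene length (nt, log axis) for ASO to Sf9, Sf-15 to Sf9 and Sf-15 to ASO, 1 point per member. The ratio of Sf-15 to ASO goes down with length (r of -0.52), with medians of 0.10 under 750 nt and -0.18 at 2000 nt or more.

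The offset of the members was shared by the next unigenes in abundance. At ranks 201 to 1000 the median log2 ratio was -0.39 in ASO and -0.44 in Sf-15, and 86.5% were lower in both. By rank, the median of all unigenes in ASO was -0.41 at ranks 1 to 50, -0.44 at ranks 151 to 200, -0.32 at ranks 1001 to 2000 and -0.04 at ranks 5001 to 10000. In Sf-15 it was -0.33, -0.50, -0.41 and -0.26. Ranked by the mean of the 3 libraries in place of Sf9, which does not favour unigenes that were high in Sf9, the medians were -0.39, -0.42, -0.28 and 0.00 in ASO, and -0.31, -0.47, -0.37 and -0.23 in Sf-15. The shift in ASO thus faded with falling abundance and that in Sf-15 did so less, and at ranks 1 to 50 the shift was larger in ASO. The added 1 FPKM matters little above 10 FPKM and draws the lowest of these ranks towards 0.

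**Figure D5:**
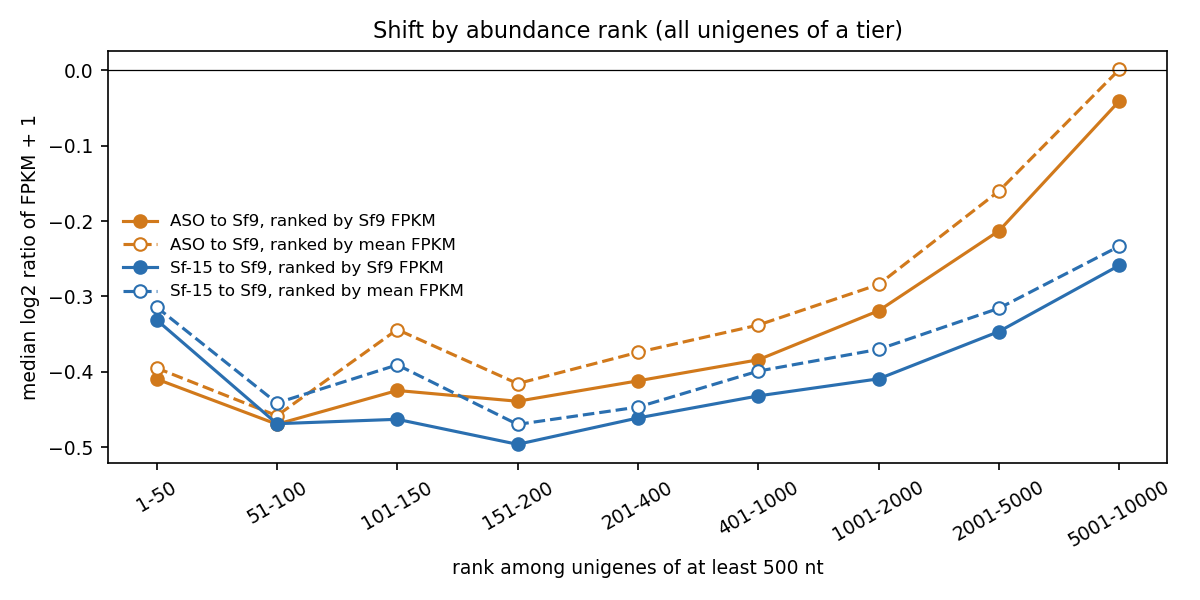
Median log2 ratio of FPKM + 1 to Sf9 (vertical axis) over all unigenes of at least 500 nt in tiers of abundance rank (horizontal axis), for ASO and Sf-15, ranked by Sf9 FPKM (filled points) or by the mean FPKM of the 3 libraries (open points). The ASO median moves from about -0.41 at ranks 1 to 50 to about 0 at ranks 5001 to 10000, and the Sf-15 median stays at or below -0.23.

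The rule, which bounds the level in all 3 libraries, largely fixed the rank of the members in ASO and Sf-15 as well, so their ranks there are a description. Of the 172, 159 were among the 200 highest long unigenes of ASO, 159 among those of Sf-15 and 152 among both. No member ranked below 236 in ASO or 246 in Sf-15. Taken as a pool of their own, which is free of the scaling, the members exchanged 6.48% of the pooled fragments between Sf9 and ASO, 5.65% between Sf9 and Sf-15 and 4.73% between ASO and Sf-15. Within the pool the log2 ratios had an SD over members of 0.22, 0.22 and 0.18, where counting error alone would give 0.017, 0.017 and 0.019. The profile of the pool was thus close in the 3 libraries but differed by more than counting error, and the spread is bounded by the rule.

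Most members were single unigenes. A name with CL marks a contig of a cluster of similar contigs, and 18 members (10.5%) had such a name, against 41.1% of the other unigenes of at least 500 nt and 8.0% of ranks 201 to 1000. In all clusters with a member but CL192, the member took at least 88.3% of the fragments of its cluster in each library. Among these, the ratio of the cluster differed most from that of its member in CL1771. CL1771.Contig1 (1931 nt) held 96.2%, 90.7% and 92.7% of its cluster in the 3 libraries, with a log2 ratio in ASO of -0.59 for the contig and -0.50 for the cluster. The remaining contigs of CL1771 had ASO ratios above 0, from 0.62 to 0.98 on the log2 scale. In CL85 the ratio in ASO was -0.74 for CL85.Contig3 and -0.69 for the cluster. CL192 was the only cluster with more than 1 member. Its CL192.Contig4 held 49.8%, 46.9% and 47.0% of the cluster, and CL192.Contig5 held 28.6%, 29.3% and 29.3%. The whole of CL192, with 6 contigs, had log2 ratios of 0.12 and 0.07, so it stood among the few that were not lower. How the authors counted fragments that fit more than 1 contig is not given in the sources used here.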

How the data were processed

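Total RNA of 3 samples of Sf9 cells (normal, ASO and Sf-15) was sequenced by Illumina HiSeq, 1 library each. The labels name poly(A) selection and removal of ribosomal RNA as alternatives and do not say which was used. The authors trimmed and filtered the reads and assembled unigenes with Trinity, TGICL and Phrap. The aligner and counting program are not given in the sources used here. The deposited tables hold raw fragments (counts without normalization), FPKM computed by the authors and, in another unit, the length in nt. Their columns of log2 ratio, direction, p-value and false discovery rate hold the authors' own comparisons and were not used.

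The tables were joined by unigene name, without the ending "_All", and unigenes not listed for a pair were taken as 0. It was checked that fragments sum to the header total in 3 of 3 libraries, and that FPKM recomputed from the fragments differs by at most 0.00005. Against the gene table of *S. frugiperda*, 0 unigene names matched.

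Ratios are log2(FPKM + 1) differences. Intervals are exact at 95%, of shares (Clopper-Pearson) or of the ratio of shares, and cover counting error only. With 1 library per condition no test was run and no p-value is given. Named unigenes were the 10 highest members by Sf9 FPKM, the 3 largest rises and falls in each comparison, the 3 flattest, those next to either limit, clusters with 2 or more members, the 5 highest non-members and CL1590 contigs. Others were chosen after their values were seen. The members and lists were chosen with earlier results of these data known. Alternatives were 16 planned and 3 added after seeing the data, with the scalings TMM (edgeR 4.0.16) and median-of-ratios (DESeq2 1.42.0) among them. The steps were tested on simulated data. Python 3.11.15, numpy 2.4.6, scipy 1.17.1, pandas 2.3.3, matplotlib 3.10.9 and R 4.3.3 were used.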

Additional observations from a re-analysis of the deposited data

How the results depend on the processing

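No paired analysis was possible because there is only 1 library of each kind. As reported, the rule gave 172 members, log2 ratios of summed share of -0.34 in ASO and -0.34 in Sf-15, medians of -0.40 and -0.40, and 65 members in the graded order of Sf9 above ASO above Sf-15. The size of the shift in Sf-15 and the graded order depended on the scaling, and the graded order also on the minimum length. TMM scaling gave share ratios of -0.38 in ASO and -0.098 in Sf-15, a median in Sf-15 of -0.16 and 10 graded members. Median-of-ratios scaling gave -0.39, -0.11, -0.17 and 11, and TMM scaling over unigenes with at least 10 fragments gave -0.37, -0.092, -0.15 and 10. Totals without CL1590 gave share ratios of -0.18 and -0.044, medians of -0.25 and -0.11 and 24 graded members. Holding the 172 members while the scaling changed, which was chosen after seeing the data, gave share ratios of -0.38 and -0.092, a median in Sf-15 of -0.16 and 10 graded members with TMM. It gave -0.39, -0.10, -0.17 and 11 with median-of-ratios, and without CL1590 share ratios of -0.16 and -0.028, medians of -0.22 and -0.09 and 21 graded members.

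The direction of the summed share turned only where no limit was set on the ratios, at 0.19 in ASO and 0.42 in Sf-15, since the CL1590 contigs then count among the 200. A limit of 0.5 left 98 members with share ratios of -0.23 and -0.23, medians of -0.31 and -0.30 and 35 graded members, and a limit of 1 gave share ratios of -0.36 and -0.36. The top 100 gave 90 members, -0.35, -0.33 and 26 graded, and the top 400 gave 345 members, -0.32, -0.35 and 146 graded. A minimum length of 1000 nt gave share ratios of -0.26 and -0.35 and a median in ASO of -0.34, with 94 of 178 members in the graded order, and no limit on length gave -0.33 in Sf-15. Ranking by mean FPKM gave -0.34 and -0.34, by ASO FPKM -0.33 and -0.34, and by Sf-15 FPKM -0.34 and -0.33. Small moves such as these are given here since the counting intervals are narrow at this depth, and the cause was not tested. Of the members, 170 of 174 under TMM, 172 of 186 without CL1590 and 159 of 173 when ranked by ASO FPKM were shared with the 172. With 1 library per condition, no alternative tells how far repeat cultures would differ.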

Other observations

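Shorter unigenes, which the minimum length left out, held some of the most abundant transcripts. At least as abundant in Sf9 as the unigene at rank 200 were 30 unigenes under 500 nt, with Unigene23439 the highest at 29122 FPKM. They took 4.26%, 3.00% and 3.66% of the fragments of the Sf9, ASO and Sf-15 libraries. Lower than Sf9 in both transfected libraries were 24 of them, against 155 of the 172 members and 42.5% of all unigenes of at least 500 nt. Under the limit of 0.8 were 20 of the 30, against 172 of the 200 and 89.5% of all. The median log2 ratio of the 30 was -0.50 in ASO and -0.39 in Sf-15. Higher in Sf-15 than in ASO were 23 of the 30, against 38 of the 48 members under 750 nt and 24.8% of all.

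The 28 long unigenes past the limit had medians of -0.82 in ASO and -0.76 in Sf-15. Past the limit in ASO were 21 of them, in Sf-15 18, and in both 11.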
